A study of Arabidopsis thaliana with 8 samples.

Results

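The class III peroxidases described here are 50 genes of Arabidopsis thaliana measured in inflorescence stems, out of a list of 60 loci of this family. A locus was kept when the platform annotation gave it a probe set carrying its name alone, and each of the 50 had exactly 1 such probe set, so no choice between probe sets was needed. Of the 10 loci left out, 7 lie on 4 probe sets that carry several genes and 3 were not named by any listed probe set. This rule for keeping a locus used no measured value, but the members were chosen with earlier results of these data known. In all, 13286 genes had a probe set of their own. The annotation gave 6 of the 50 a name, PRX25, PRX52, PRX71, PRX72, PER36 and PRXR1, and the others are called by locus.

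Class III peroxidases are secreted haem enzymes that use hydrogen peroxide to oxidise phenolic compounds in the cell wall. In lignifying xylem and fibres they turn monolignols into radicals that couple into the polymer, a task they share with the laccases. The family also stiffens walls by cross-linking proteins and phenolics, and some members take part in making reactive oxygen during defence and wounding. F5H, ferulate/coniferaldehyde 5-hydroxylase, directs monolignols towards the sinapyl alcohol from which syringyl units are made, so these lines bear on the substrate that wall peroxidases meet.

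RNA was hybridised to 8 arrays of 1 colour each. WT stems gave 3 arrays, stems of a line overexpressing F5H (F5H-OE) gave 3, and stems of the line fah-1, with loss of F5H function, gave 2. All plants were of ecotype Columbia-0, 1.5 months old, grown in long days, and each sample pooled the stems of 5 plants. No source used here gives the promoter of the F5H-OE line or the number of independent lines, and F5H itself had no named probe set with which to check the labels.

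Median intensities ran from 112 to 118 over the arrays, and the small number of arrays limits the precision. F5H-OE replicate 1 stood apart from the other arrays of its group, with a mean correlation of 0.987 with them over all probe sets, against 0.997 between replicates 2 and 3 and 0.994 to 0.995 between WT arrays. The 3′ minus 5′ signal of its GAPDH control probe sets was 1.47 on the log2 scale, against 0.51 to 0.85 in the other arrays. The counts of changed members that touch F5H-OE, and the members whose values this array moved, are therefore given with and without it. Of the stem markers that could be named, HCT of monolignol synthesis and the xylan genes GUT2 (IRX10), IRX15 and IRX15-L were above the control level on all 8 arrays, whereas the root endodermis, flower, green tissue and epidermis markers chosen were not named and were not used here.

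Level was read against the TrpnX control probe sets, which target no plant transcript. The brightest of them on each array, at log2 3.65 to 3.93, is called the control level here, a measure chosen with the data in view. By this measure 38 of the 50 peroxidases (76.0%) were above the control level on all 8 arrays, against 85.9% of all probe sets. Another 9 were above it on some arrays, and AT1G68850, AT1G77100 and AT4G30170 on none. Only 10 members (20.0%) lay at least 2 log2 units above it on every array, against 58.0% of all probe sets, while 25 lay less than 1 unit above. Most members thus gave little signal in stem, and for those a difference between groups could be hidden by background. Probe sets differ in their efficiency, so these values do not rank the genes.

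**Figure D1:**
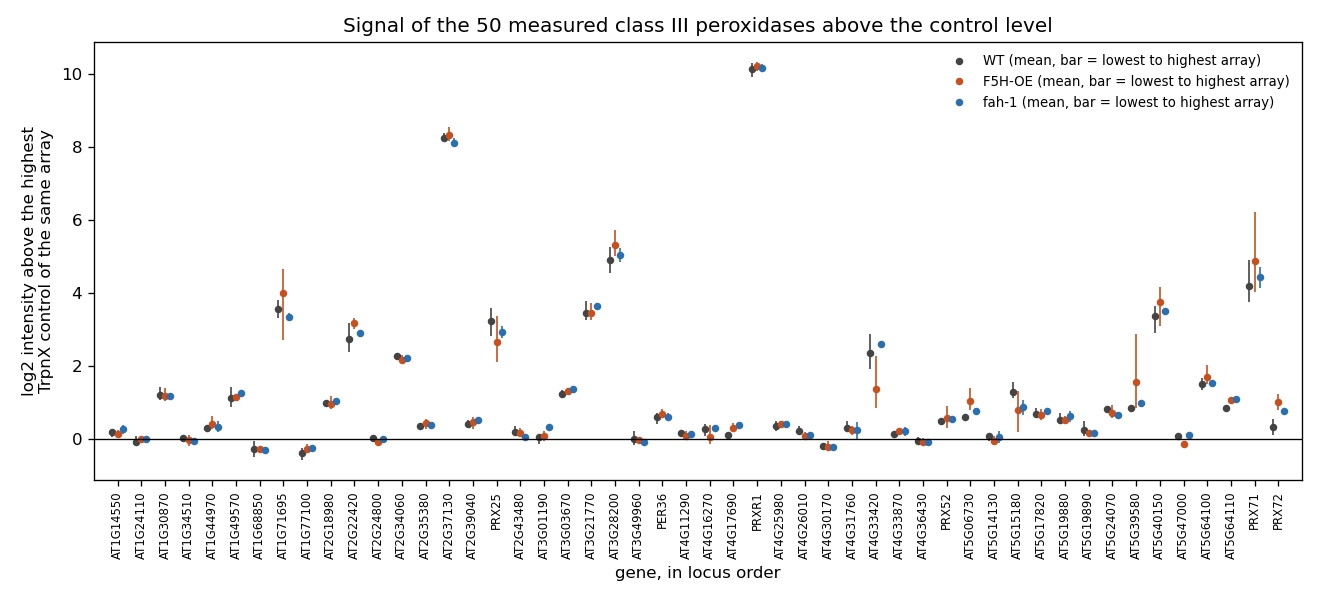
Log2 intensity of each measured peroxidase above the highest TrpnX control of the same array, with the group mean as a point and the lowest to highest array as a bar. Of the 50 genes, 10 lie at least 2 units above the control level on every array, and the bars of AT1G71695, AT4G33420, AT5G39580 and PRX71 are long in F5H-OE.

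The 10 members with the clearest signal were AT1G71695, AT2G22420, AT2G34060, AT2G37130, PRX25, AT3G21770, AT3G28200, PRXR1, AT5G40150 and PRX71. PRXR1 had log2 intensities of 13.95, 13.94 and 13.85 in WT, 13.84, 14.02 and 13.98 in F5H-OE, and 13.85 and 13.98 in fah-1. Its groups overlapped fully, and its log2 fold change from WT was 0.03 in F5H-OE (95% interval -0.15 to 0.22) and 0.00 in fah-1. AT2G37130, a peroxidase tied to pathogen defence, ranged from 11.81 to 12.14 in WT, 11.91 to 12.22 in F5H-OE and 11.80 to 11.95 in fah-1. AT2G34060 lay between 5.84 and 6.12 on all 8 arrays. In PRX25, PRX71, AT1G71695 and AT5G40150, by contrast, F5H-OE replicate 1 lay at least 0.8 log2 units from the other F5H-OE arrays.

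Comparing F5H-OE with WT addresses whether stems with more F5H carry a different set of peroxidase transcripts. With all arrays, 0 of the 50 members passed an adjusted p under 0.05 in limma's moderated test, against 603 of 22746 probe sets (2.65%), so the members' count was near the background. At an unadjusted p under 0.05 there were 5 members, against 17.5% of all probe sets. The members had a median log2 fold change of -0.04 and all probe sets -0.02, with 21 members above 0 and 29 below. In 37 members the 95% interval lay within 0.5 log2 units of 0 and in 44 within 1 unit, with intervals not adjusted for the number of genes. Many of these members were dim, where background can hide a difference. Of the 10 members with the clearest signal, only AT2G34060, AT2G37130, AT3G21770 and PRXR1 had intervals within 0.5. In these whole-stem samples, fewer cells of a type and less RNA per cell cannot be told apart.

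**Figure D2:**
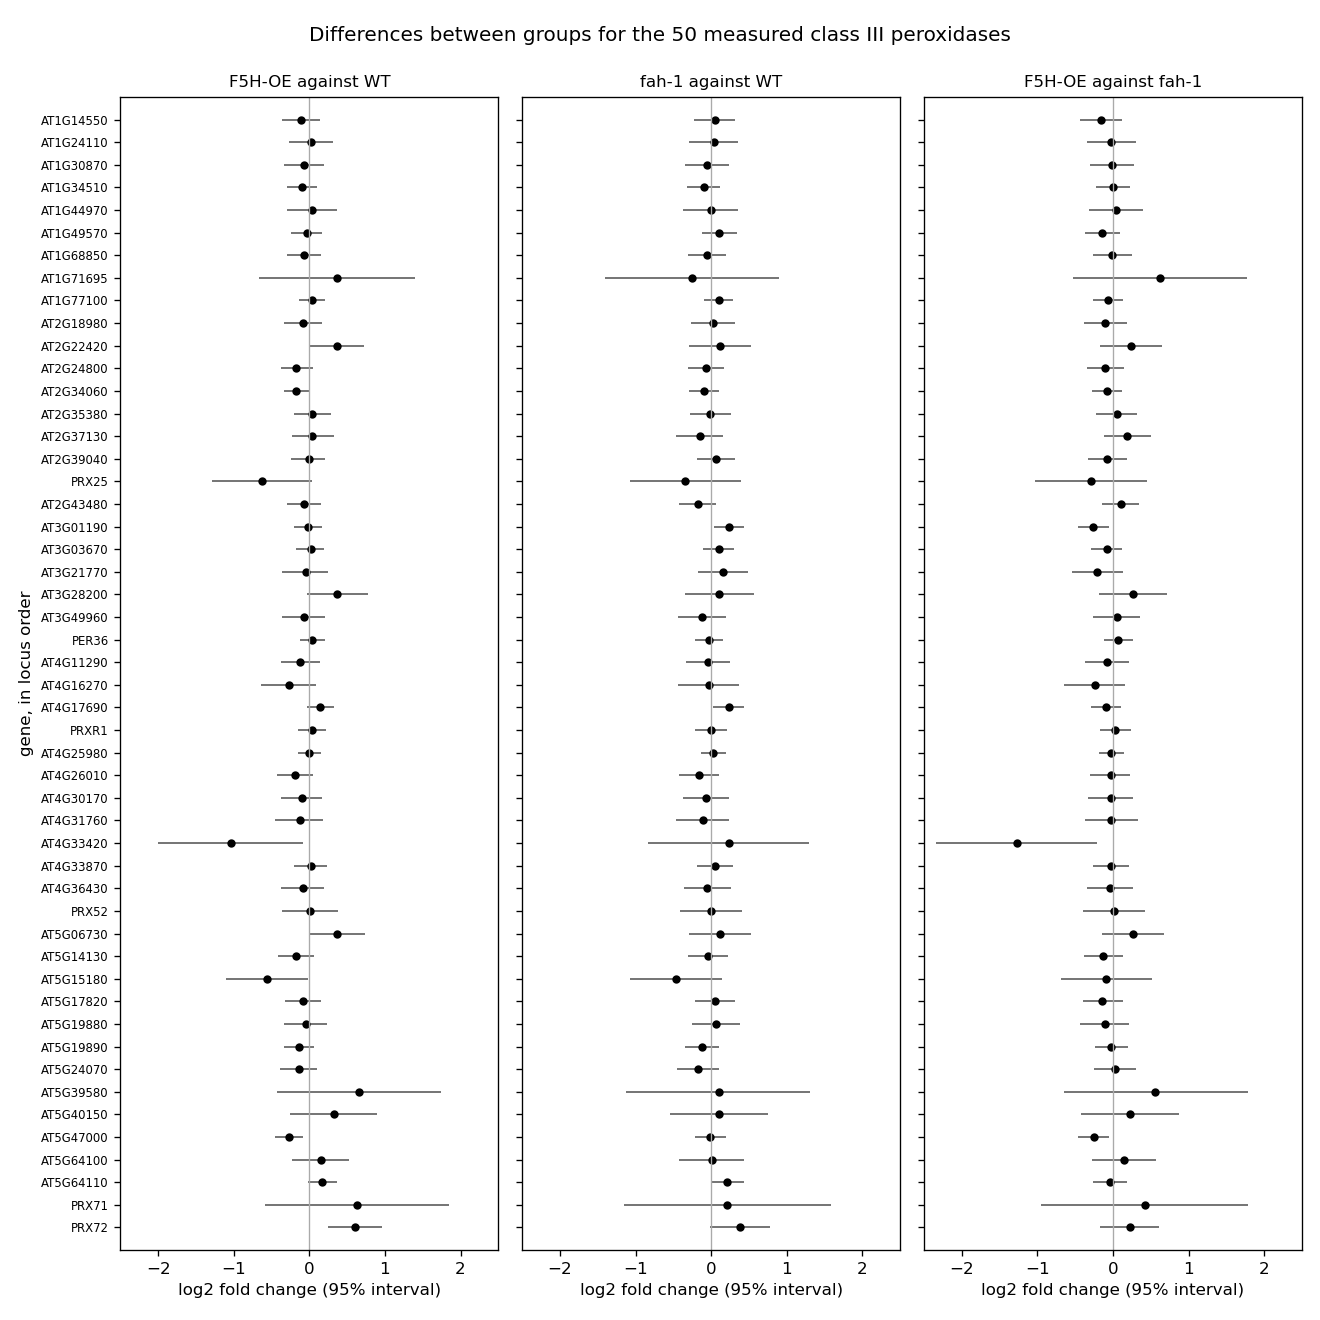
Log2 fold changes with 95% intervals from limma for the 50 measured peroxidases in locus order, in F5H-OE against WT, fah-1 against WT and F5H-OE against fah-1. Most points lie near 0 with short intervals, and AT1G71695, PRX25, AT4G33420, AT5G39580 and PRX71 have wide ones.

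Without F5H-OE replicate 1, 5 of the 50 members passed, against 7.73% of all probe sets. AT1G71695, AT5G40150 and PRX72 rose (3 members, against 3.89% of probe sets) and PRX25 and AT4G33420 fell (2 members, against 3.84%). These shares again lay near the background. No other array, left out alone, gave a call among the members in this comparison. The array was singled out with these data in view, and the fit without it rests on 2 F5H-OE arrays.

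Of 7 members listed as tied to lignin or wall stiffening, 0 passed with all arrays, and their median log2 fold change was 0.01. This lignin list was drawn up with earlier results known, and for AT3G21770, which is on it, no role is given here. Without F5H-OE replicate 1, 1 of the 7 rose and 2 fell, against 3.89% and 3.84% of all probe sets, and the median was -0.05. Given how the list was drawn up, these counts cannot be read as a concentration of changes in it. AT4G33420, a peroxidase associated with vessel lignification, had log2 intensities of 5.94, 5.68 and 6.81 in WT, 6.04, 4.75 and 4.51 in F5H-OE, and 6.42 and 6.32 in fah-1. F5H-OE replicate 1 lay within the WT range, and replicates 2 and 3 lay below every WT and fah-1 array. Its log2 fold change from WT was -1.04 ± 0.41 (SE, adjusted p = 0.244) with all arrays. Without F5H-OE replicate 1 it fell by 1.52 (95% interval -2.18 to -0.85, limma adjusted p = 0.018), or 2.86-fold.

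PRX25, whose loss alters lignin in Arabidopsis stems, had log2 intensities of 7.25, 7.08 and 6.75 in WT, 7.13, 5.89 and 6.19 in F5H-OE, and 6.59 and 6.79 in fah-1. Here too F5H-OE replicate 1 lay in the WT range and replicates 2 and 3 were lower than all other arrays. The mean intensity was 132 ± 22.4 (SD, n = 3) in WT and 90.7 ± 43.1 (SD, n = 3) in F5H-OE, and the log2 fold change of -0.62 did not pass (limma adjusted p = 0.312). Without that array PRX25 fell by 0.99 on the log2 scale (95% interval -1.35 to -0.62, limma adjusted p = 0.0097).

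SWEET11, a sucrose exporter and the 1 phloem marker that could be named, moved in the same arrays. F5H-OE replicate 1 stood at log2 9.17, inside the WT range of 8.29 to 9.84, and the other F5H-OE arrays at 5.88 and 6.50. Its log2 fold change was -1.90 with all arrays (limma adjusted p = 0.256) and -2.89 without F5H-OE replicate 1 (limma adjusted p = 0.0049). The 3 xylan genes, which mark secondary walls, had log2 fold changes of 0.02 to 0.19 with all arrays and 0.03 to 0.24 without that array, none past the threshold. The part of tissue make-up in the values of PRX25 and AT4G33420 was not tested.

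PRX72, whose loss lowers lignin in Arabidopsis stems, had log2 intensities of 3.78, 4.33 and 4.28 in WT, 4.56, 4.78 and 4.88 in F5H-OE, and 4.53 and 4.51 in fah-1. All 3 F5H-OE arrays and both fah-1 arrays lay above all WT arrays, and the lowest WT array was 0.13 above the control level. The log2 fold change of F5H-OE from WT was 0.61 ± 0.15 (SE, adjusted p = 0.087), the smallest p among the members. It rose without F5H-OE replicate 1, by 0.70 (95% interval 0.33 to 1.06, limma adjusted p = 0.036). It was the 1 member to pass when values were quantile normalized again (adjusted p = 0.037).

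PRX71, which acts in wall stiffening and in responses to wall damage, had log2 intensities of 8.56, 7.66 and 7.70 in WT, 9.97, 7.80 and 8.04 in F5H-OE, and 7.95 and 8.42 in fah-1. The highest value was that of F5H-OE replicate 1, and the other arrays of the groups overlapped. The log2 fold change of 0.63 had a 95% interval of -0.59 to 1.85, and without that array it was -0.05 (-0.68 to 0.57). AT2G22420, a peroxidase linked to lignified tissue, lay at 6.85, 6.16 and 6.61 in WT and at 6.92, 6.80 and 6.98 in F5H-OE, a log2 fold change of 0.36 (95% interval -0.01 to 0.72, limma adjusted p = 0.296) with the groups overlapping, or 0.35 without that array (adjusted p = 0.310).

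PRX52, which takes part in lignification of interfascicular fibres, lay close to the control level, at 4.09 to 4.46 in WT, 4.09 to 4.65 in F5H-OE and 4.20 to 4.38 in fah-1. Its log2 fold change in F5H-OE was 0.01 (95% interval -0.36 to 0.38), and -0.16 without F5H-OE replicate 1. AT3G21770, for which no role is given here, ranged over 7.11 to 7.44 in WT, while F5H-OE spanned 7.02 to 7.39, with a log2 fold change of -0.05 (95% interval -0.36 to 0.25), or 0.03 without that array. Neither gene had a settled direction.

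**Figure D3:**
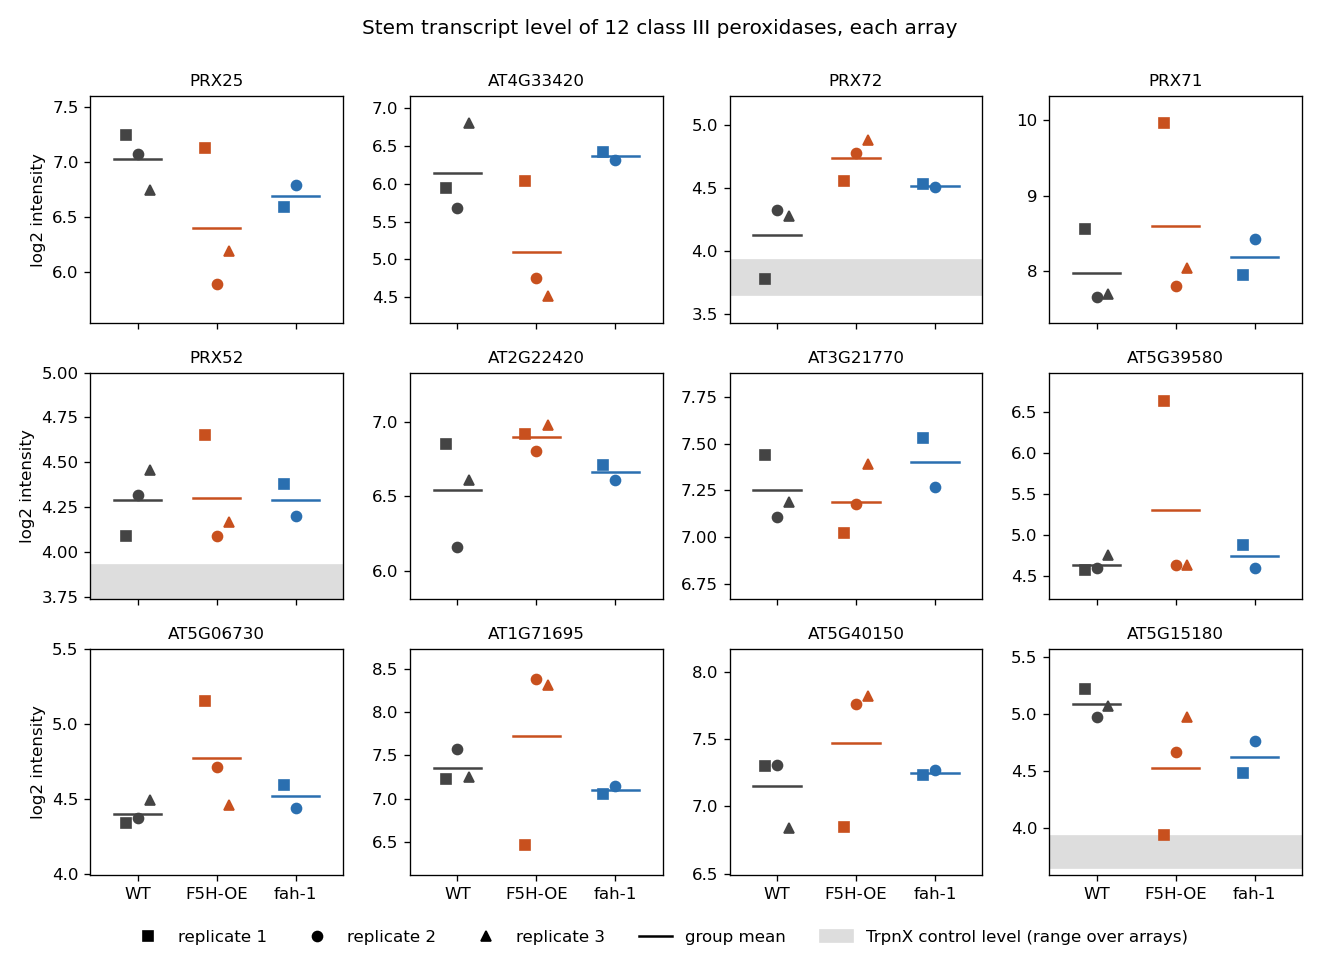
Log2 intensity of 12 peroxidases on each of the 8 arrays, with replicates as symbols, group means as lines and the range of the TrpnX control level in grey where it falls within a panel. F5H-OE replicate 1 lies in the WT range for PRX25 and AT4G33420, above all other arrays for PRX71, AT5G39580, PRX52 and AT5G06730, and below all others for AT1G71695 and AT5G15180.

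The members with no role assigned here held the 2 other rises. AT1G71695 had log2 intensities of 7.23, 7.57 and 7.25 in WT, 6.47, 8.38 and 8.31 in F5H-OE, and 7.05 and 7.15 in fah-1. The F5H-OE arrays thus lay on both sides of WT, with replicate 1 below all 7 other arrays. Its log2 fold change was 0.37 (95% interval -0.66 to 1.40) with all arrays. Without replicate 1 it rose by 0.99 (0.73 to 1.26, limma adjusted p = 0.0027), or 1.99-fold.

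AT5G40150 showed a like order, at 7.30, 7.31 and 6.84 in WT, 6.85, 7.76 and 7.82 in F5H-OE, and 7.23 and 7.27 in fah-1. F5H-OE replicates 2 and 3 lay above the remaining 6 arrays. The log2 fold change was 0.32 (95% interval -0.25 to 0.90) with all arrays, and it rose by 0.64 (0.31 to 0.97, limma adjusted p = 0.033) without replicate 1. AT5G15180 lay at 5.22, 4.97 and 5.07 in WT, at 3.94, 4.67 and 4.97 in F5H-OE and at 4.48 and 4.76 in fah-1. Its log2 fold change of -0.56 in F5H-OE (limma adjusted p = 0.269) became -0.27 without replicate 1 (adjusted p = 0.289).

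**Figure D4:**
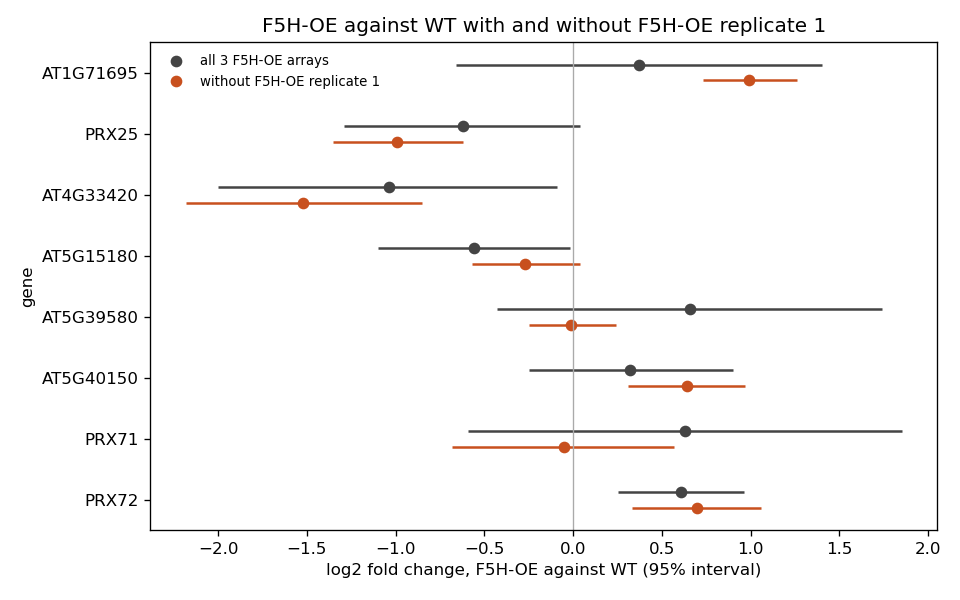
Log2 fold change of F5H-OE against WT with its 95% interval for 8 peroxidases, with all 3 F5H-OE arrays and without F5H-OE replicate 1. The values of PRX71 and AT5G39580 move to near 0, while the intervals of AT1G71695, PRX25, AT4G33420 and AT5G40150 shorten and move away from 0.

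AT5G47000 had log2 intensities of 3.78, 3.85 and 3.99 in WT, 3.56, 3.65 and 3.61 in F5H-OE, and 3.90 and 3.82 in fah-1. It was above the control level on all WT and fah-1 arrays and on no F5H-OE array. The control level was 3.65, 3.76 and 3.93 on the WT arrays, so the WT values lay little above it. The log2 fold change of -0.27 from WT to F5H-OE did not pass (limma adjusted p = 0.139, or 0.153 without F5H-OE replicate 1). With each F5H-OE array counted at the control level or its own value, whichever is higher, the WT mean was 1.11-fold that of F5H-OE. This ratio takes no account of the spread between arrays, so it is not a lower limit. Including AT5G47000, 4 members had groups that did not overlap between F5H-OE and WT, against 21.0% of all probe sets. The others were PRX72, AT5G64110 and AT2G24800, the last of which was also above the control level on no F5H-OE array.

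Of the 8 listed peroxidases tied to wounding, pathogens or apoplastic oxidants, 6 were measured and 0 passed. Their median log2 fold change was 0.26 with all arrays and -0.01 without F5H-OE replicate 1. PRX71, at 0.63 and -0.05, is on this list as well as on the lignin list. AT5G39580, which promotes root hair growth in the cold, had log2 intensities of 4.57, 4.60 and 4.76 in WT, 6.63, 4.64 and 4.64 in F5H-OE, and 4.88 and 4.60 in fah-1. Only F5H-OE replicate 1 was high. The log2 fold change was 0.66 (95% interval -0.43 to 1.74) with all arrays and -0.01 without it. AT5G06730 lay at 4.34, 4.37 and 4.49 in WT and 5.15, 4.71 and 4.46 in F5H-OE, with a log2 fold change of 0.37 (limma adjusted p = 0.277), or 0.19 without that array. AT4G36430 was above the control level on 2 of the 8 arrays.

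The genes listed for touch and wounding were read beside these. Of 7, STZ (ZAT10), a stress-responsive zinc finger gene, and CML38, a calmodulin-like gene, could be named. CML38 reached log2 9.10 on F5H-OE replicate 1, whereas the other F5H-OE arrays held 5.91 and 7.28 and the WT arrays 6.18 to 7.46. STZ was at 9.10 there, against 8.24 and 8.95 and a WT range of 8.14 to 9.36. The part of sample handling or RNA quality in the values of PRX71 and AT5G39580 was not tested.

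Over the whole family, F5H-OE replicate 1 lay at least 0.8 log2 units from the mean of replicates 2 and 3 in 7 of the 50 members (14.0%), against 4.36% of all probe sets, a margin chosen after the values were seen. It was higher by 2.04 in PRX71, 2.00 in AT5G39580, 1.41 in AT4G33420 and 1.09 in PRX25. It was lower by 1.88 in AT1G71695, 0.94 in AT5G40150 and 0.88 in AT5G15180. The median SD within F5H-OE over the members was 0.102 with all 3 arrays and 0.0622 over replicates 2 and 3, against 0.173 in WT and 0.0844 in fah-1 (log2). Over all probe sets the medians were, in the same order, 0.111, 0.0657, 0.119 and 0.0691. Medians over 2 arrays, as for fah-1 and for replicates 2 and 3, are not directly comparable with those over 3.

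**Figure D5:**
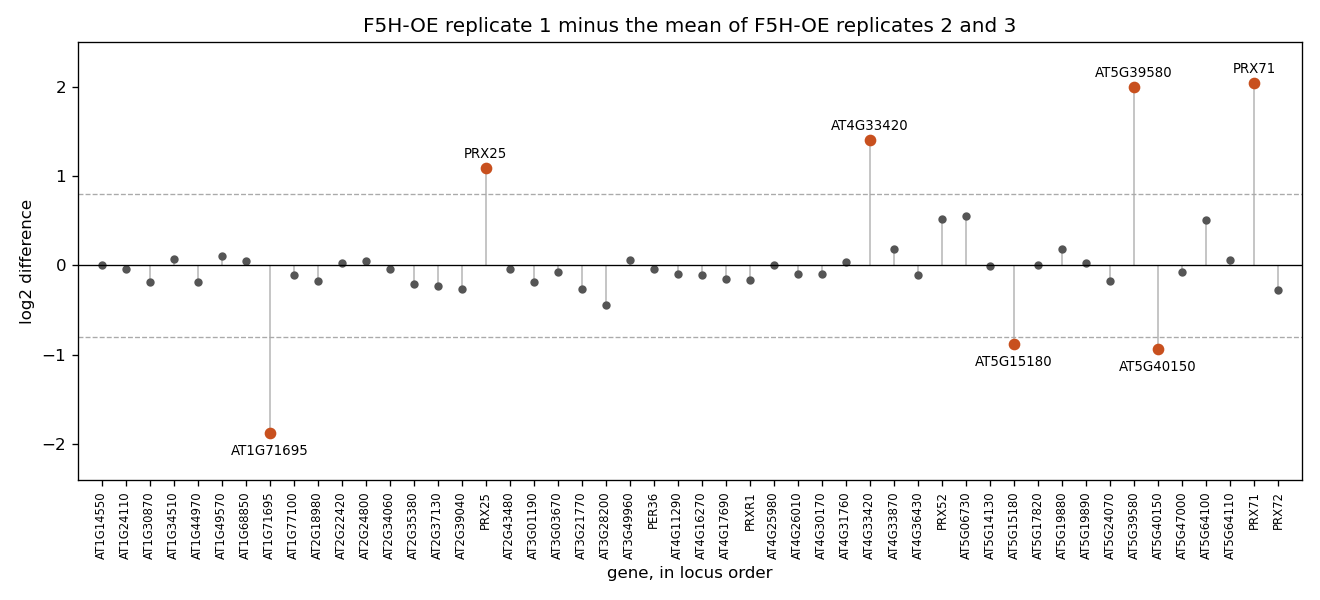
Log2 intensity of F5H-OE replicate 1 minus the mean of F5H-OE replicates 2 and 3 for the 50 measured peroxidases, with dashed lines at 0.8 in both directions. The 7 labelled genes lie beyond the lines, 4 above and 3 below, and most other points lie near 0.

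The peroxidases lay on all 5 chromosomes, with 9 measured on each of chromosomes 1 and 2, 6 on chromosome 3, 11 on chromosome 4 and 15 on chromosome 5. In the gene order of TAIR10.1, 7 pairs of listed loci were direct neighbours, and in 3 of these both genes were measured. None of the 50 probe sets bore the suffix that marks probes shared between transcripts. AT5G64100, AT5G64110 and PRX71 stand in a row on chromosome 5. AT5G64100, which acts with AT5G39580 in root hairs, had log2 intensities of 5.00, 5.44 and 5.42 in WT and 5.78, 5.30 and 5.25 in F5H-OE, and AT5G64110 had 4.50, 4.69 and 4.69 in WT and 4.84, 4.84 and 4.71 in F5H-OE.

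In F5H-OE replicate 1 the excess over the other F5H-OE arrays was thus 0.51 in AT5G64100, 0.06 in AT5G64110 and 2.04 in PRX71. From WT to F5H-OE, AT5G64100 had a log2 fold change of 0.15 and AT5G64110 of 0.17 (limma adjusted p = 0.683 and 0.343). The neighbours AT5G19880 and AT5G19890 had log2 fold changes of -0.05 and -0.14 (limma adjusted p = 0.865 and 0.465), with all arrays of either gene between 3.79 and 4.49.

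Of 9 listed peroxidases tied to root hairs or root tissue, 7 were measured, 4 of them above the control level on all arrays, and 0 passed in any comparison. AT1G30870 ranged from 4.80 to 5.19 over the 8 arrays, AT5G17820 from 4.30 to 4.63 and AT4G26010, a peroxidase of growing root hairs, from 3.77 to 4.13. AT4G30170 was above the control level on no array. The 3 peroxidases of pollen, tapetum or seed coat were similarly dim. AT1G44970 and AT4G16270, which act on extensins of the tapetum wall, ranged from 3.89 to 4.32 and from 3.63 to 4.29, and PER36, which loosens the seed coat wall for mucilage release, from 4.31 to 4.47. Their log2 fold changes in F5H-OE against WT were 0.03, -0.27 and 0.04, none past the threshold.

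Comparing fah-1 with WT addresses whether loss of F5H function goes with other peroxidase levels in stem. Again 0 of the 50 members passed in limma, against 2 of 22746 probe sets (0.00879%), with 2 members at an unadjusted p under 0.05, against 5.02% of all probe sets. The lowest adjusted p among the members was 0.951. The median log2 fold change of the members was 0.00, and 39 of the 50 had a 95% interval within 0.5 log2 units of 0. Of the 10 members with the clearest signal, these again took in only AT2G34060, AT2G37130, AT3G21770 and PRXR1. No array left out gave a call, F5H-OE replicate 1 included, which enters this comparison through the shared estimate of the spread.

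The smallest p values belonged to AT3G01190 and AT4G17690. AT3G01190 had log2 intensities of 3.81, 3.88 and 3.81 in WT and 4.13 and 4.02 in fah-1, a log2 fold change of 0.24 (95% interval 0.04 to 0.44, limma adjusted p = 0.951). It was above the control level on 2 of 3 WT arrays. AT4G17690 had 3.83, 3.90 and 3.96 in WT and 4.17 and 4.09 in fah-1, a log2 fold change of 0.23 with the same adjusted p. AT5G64110, PRX72 and AT5G15180 followed, with log2 fold changes of 0.21, 0.38 and -0.47 (limma adjusted p = 0.965 for each).

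In all 5 the fah-1 arrays lay outside the WT range, as in 6 members altogether, against 23.4% of all probe sets. The sixth was AT1G71695, at -0.25. The 7 members on the lignin list had a median log2 fold change of 0.15, the value of AT3G21770, for which no role is given here. AT4G33420 was at 0.23 (95% interval -0.83 to 1.29), PRX25 at -0.34 (-1.08 to 0.40), PRX71 at 0.21 and PRX52 at 0.00.

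The touch and wounding genes that could be named were higher on both fah-1 arrays than on every WT array, without passing the test. STZ stood at log2 9.69 and 10.17 in fah-1, a log2 fold change from WT of 1.22 (limma adjusted p = 0.928), and CML38 at 7.60 and 7.77, a log2 fold change of 1.01 (limma adjusted p = 0.973). The 3 xylan genes were lower on both fah-1 arrays than on every WT array, with log2 fold changes of -0.55 in GUT2, -0.46 in IRX15 and -0.34 in IRX15-L, none past the threshold. The part of handling or tissue make-up in the peroxidase values of fah-1 was not tested.

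Set against each other directly, F5H-OE and fah-1 are the lines with more and with less F5H function. This comparison shares its arrays with those above. In limma 0 of the 50 members passed with all arrays, against 449 of 22746 probe sets (1.97%), with 3 members at an unadjusted p under 0.05, against 15.7% of all probe sets. AT4G33420 was lower in all 3 F5H-OE arrays than in both fah-1 arrays, with a log2 fold change of -1.27 (95% interval -2.34 to -0.21, limma adjusted p = 0.237). AT3G01190 was at -0.26 (limma adjusted p = 0.214). AT5G47000, above the control level on no F5H-OE array, was at -0.25 (95% interval -0.46 to -0.05, limma adjusted p = 0.218). With the F5H-OE arrays held at the control level or above, its fah-1 mean was 1.10-fold that of F5H-OE. Groups did not overlap in 10 members, against 36.8% of all probe sets.

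Without F5H-OE replicate 1, 2 members passed between the lines, against 6.83% of all probe sets, with 1 member higher (against 3.59%) and 1 lower (against 3.24%). AT4G33420 fell by 1.75 on the log2 scale (95% interval -2.47 to -1.02, limma adjusted p = 0.016), or 3.35-fold, and AT1G71695 rose by 1.25 (0.95 to 1.54, limma adjusted p = 0.0017), or 2.37-fold. PRX72, above WT in both lines, differed between them by 0.22 (95% interval -0.17 to 0.61) with all arrays. AT1G49570 and AT5G06730 had the next smallest p with all arrays, at -0.14 and 0.26 (limma adjusted p = 0.539 and 0.537), or -0.18 and 0.07 without F5H-OE replicate 1.

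Other genes of the same chemistry were little covered. Of 17 laccases only LAC16 was named, and it was above the control level on no array. Of 10 respiratory burst oxidases, which supply superoxide to the wall, 3 were measured. AT4G11230 was above the control level on no array, and no fold is given for it. AT1G19230 and AT4G25090 had log2 fold changes from WT of -0.06 and -0.19 in F5H-OE and of -0.21 and 0.07 in fah-1, none past the threshold. Of 11 ascorbate peroxidases and catalases, the hydrogen peroxide scavengers within the cell, the chloroplast enzymes SAPX and TAPX were measured. SAPX lay at 8.70 to 8.74 in WT, 8.38 to 8.64 in F5H-OE and 8.38 and 8.45 in fah-1, below WT on every array of both lines, with log2 fold changes of -0.23 and -0.30 (limma adjusted p = 0.214 and 0.935).

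Of 19 monolignol genes, HCT had a log2 fold change of 0.07 in F5H-OE, and CCR2, a cinnamoyl-CoA reductase, was at 8.68 in F5H-OE replicate 1 alone and at 5.40 to 5.88 on all other arrays. Among the 14 measured genes of the lists other than peroxidases, 1 passed in any comparison with all arrays, GUT2, which was 0.64 higher (log2) in F5H-OE than in fah-1 (limma adjusted p = 0.038). The call of GUT2 ended without F5H-OE replicate 2 or 3, without either fah-1 array, with recentred arrays, in a fit of the 2 lines alone and with a replicate block.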

How the data were processed

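The authors deposited linear intensity values of probe sets. Per the submitters' processing notes these came from RMA (version, chip definition and filters not given in the sources read). RMA evens out the arrays' quantiles, which would hide a shift shared by most transcripts. Log2 was taken with no pseudocount. Of 22810 probe sets 64 controls were left out. Gene names came from the platform annotation through gene identifiers of the TAIR10.1 table, which matched 13436 probe sets.

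Group means of all 8 arrays were fitted with limma 3.58.1 in R 4.3.3 (lmFit, eBayes, 2-sided), with Benjamini-Hochberg adjustment over 22746 probe sets and a threshold of 0.05. The fit was also run on simulated data with independent noise, in which each probe set had the same spread on all arrays. That setting does not cover an array that stands apart, as F5H-OE replicate 1 does. Labels call the samples biological replicates and the design text speaks of 3, while 2 fah-1 samples were analysed here.

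The members and all 15 lists were chosen with earlier results of these data known. Named in full were members past the threshold with all arrays or without F5H-OE replicate 1, and those on the lignin list. The 5 smallest p per comparison, neighbours, and members whose groups did not overlap by at least 0.5 were also named in full. Other members, such as AT5G39580 and PRXR1, were added after their values were seen. Alternatives were other normalizations, filters, spreads, array weights, fits of 2 groups, a replicate block and leaving out each array. No sequences are printed.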

Additional observations from a re-analysis of the deposited data

How the results depend on the processing

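In F5H-OE against WT the count of changed peroxidases was 0 in 12 of 15 alternatives. It was 1 (PRX72) with values quantile normalized again, against 618 of 22746 probe sets. With array weights it was 5, against 2526 probe sets, and without F5H-OE replicate 1 likewise 5, against 1758. Leaving out single arrays thus gave 0 to 5. Array weights called PRX25 (-0.84), AT3G28200, AT4G33420 (-1.34), AT5G47000 (-0.26) and PRX72 (0.60), of which 3 were also called without F5H-OE replicate 1 (log2 fold changes). In F5H-OE against fah-1 the count was 2 with array weights, against 2878 of 22746 probe sets. It was also 2 without F5H-OE replicate 1, against 1554 (0 to 2 over single arrays left out). These were AT1G71695 and AT4G33420 both times, and the other alternatives gave 0. In fah-1 against WT all alternatives gave 0. The filters on dim probe sets left 41 and 20 members to test. With recentred arrays 27 members were above the highest control level of any array, against 38.

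Signs turned in values that passed under no alternative. AT3G21770 was at 0.11 with array weights, 0.04 without WT replicate 1 and 0.03 without F5H-OE replicate 1 (-0.15 to 0.04 over single arrays left out). PRX52 was at -0.01 with recentred arrays, -0.14 with array weights, -0.09 without WT replicate 1 and -0.16 without F5H-OE replicate 1 (-0.16 to 0.12 over single arrays), and PRX71 at -0.05 without F5H-OE replicate 1 (-0.05 to 1.03). Of the 14 other list genes, SWEET11 was the 1 called in F5H-OE against WT with array weights or without F5H-OE replicate 1. In F5H-OE against fah-1, 1 became 5 with array weights, a setting that called 2878 of 22746 probe sets. It became 0 with recentred arrays, 2 groups only or the replicate block, and 0 to 2 over single arrays left out.

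Whether replicate numbers pair the samples was not settled. Deviations of same-numbered WT and F5H-OE arrays correlated at 0.17, 0.33 and -0.02, against -0.25 to 0.05 for arrays with different numbers. Same-numbered WT and fah-1 arrays correlated at -0.06 and -0.03. With the number as a block 0 peroxidases were called in each comparison. The other-probe-set alternative could not be run, since no member had a further probe set.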

Other observations

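Of the 10 listed loci left out, 7 share probe sets with several genes, whose signal cannot be assigned to any 1 gene. The probe set that carries the neighbours AT4G37520 and AT4G37530 lay far above the control level, at log2 10.64, 10.09 and 10.58 in WT, 10.35, 9.88 and 10.05 in F5H-OE and 10.32 and 10.41 in fah-1. Its log2 fold change from WT was -0.34 in F5H-OE (limma adjusted p = 0.343) and -0.07 in fah-1. That of the neighbours AT2G38380 and AT2G38390 was lower on all F5H-OE arrays (4.97 to 5.20) than on all WT arrays (5.33 to 5.69), and its log2 fold change was -0.37 (limma adjusted p = 0.259). That of AT2G18140 and AT2G18150 had a log2 fold change of -0.19 in F5H-OE and 0.17 in fah-1, neither past the threshold. That of AT3G17070 and a gene outside the list was 0.71 higher (log2) in F5H-OE than in fah-1 without F5H-OE replicate 1 (limma adjusted p = 0.040), and 0.46 with all arrays (adjusted p = 0.399).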
